A study of Mus musculus with 6 samples.

Results

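Ccr1, Ccr2, Ccr3, Ccr7, Cxcr4 and Cx3cr1 encode 6 chemokine receptors, and each was measured by 1 probe set, 6 of the 12488 on the array, which name 8251 genes. The members were chosen as all probe sets whose platform annotation gives exactly 1 of these symbols, and all 6 lay above the floor described below on at least 1 array. RNA came from mouse peritoneal exudate cells (PECs), a cell preparation from the abdominal cavity that the labels also call peritoneal macrophages, and was hybridised to 6 single-colour Affymetrix arrays. The groups were cells without NF-IL6 (KO), stimulated with lipopolysaccharide (LPS) plus interferon-γ for 12 h, KO cells untreated, cells of a knock-in line labelled KI(LAP) (KI), stimulated in the same way for 12 h, KI cells untreated, wild-type cells (WT) stimulated with LPS plus interferon-γ for a time that the labels do not give, and WT cells untreated. All carried the strain label C57BL/6. NF-IL6 is another name for C/EBPβ, a DNA-binding protein of the leucine-zipper class made from the gene Cebpb, whose long, activating form is called LAP. Each group was 1 array, and the labels do not say whether that array stands for 1 animal or a pool, how the cells were elicited, or how the knockout and knock-in alleles were built, so precision is limited by having 1 array a group.

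Chemokine receptors are membrane proteins with 7 transmembrane helices that signal through inhibitory G proteins and steer cells along gradients of secreted chemokines. Ccr2 brings monocytes out of the bone marrow and into inflamed tissue, Ccr1 binds several inflammatory CC chemokines, and Ccr3 is best known from eosinophils. Ccr7 guides maturing dendritic cells to lymph nodes, Cxcr4 retains leukocytes in the bone marrow by binding Cxcl12, and Cx3cr1 binds the membrane-bound chemokine Cx3cl1 on monocytes and resident macrophages.

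Signals are the deposited linear intensities. Values under a floor of 98.0, the 40th percentile of all scaled signals, were set to it before log2 conversion, so folds that involve a floored value are lower bounds, written "at least". Cebpb had a signal of 59.0 and 12.7 on the stimulated and untreated KO arrays, both under the floor, 5890 and 2284 on the KI arrays and 9329 and 5492 on the WT arrays. Its position relative to the altered part of Cebpb is unstated, so it checks the labels only in part. The median signal of an array lay between 131 and 185 and was highest on the untreated WT array. All 8 macrophage markers (Adgre1, Csf1r, Cd68, Cd14, Itgam, Fcgr1, Lyz2 and Mertk) were above the floor on every array, and their summed signal was 39874 and 56719 on the stimulated and untreated KO arrays, 43593 and 59425 on the KI arrays and 51601 and 57464 on the WT arrays. Adgre1 and Fcgr1 rose with stimulation and Cd68 fell (limma adjusted p = 0.00908, 0.00562 and 0.0306).

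Stimulation raised Ccr7 and lowered Cxcr4 in the fit over all 6 arrays, and the other 4 receptors did not pass the test. In limma with genotype as a block, 1 of 6 receptors rose, against 5.03% of 9344 probe sets, and 1 fell, against 6.01%. The unadjusted p was under 0.05 for 5 of 6 receptors and for 2542 of 9344 probe sets. The median change of the 6 receptors was -0.85 on the log2 scale, against -0.12 over all probe sets tested. With each array centred on its median, the split over all probe sets went to 613 higher and 372 lower, against 470 and 562 here, and the median of all changes moved to -0.01, while the same number of receptors, 2, passed. The error of this fit is the variation of the response over 3 genotypes, and the spread between animals or cultures was not measured. Fits to 4 arrays, with the KO, KI or WT arrays left out in turn, called 0, 13 and 0 of 9344 probe sets, with neither receptor among them. These fits hold fewer arrays, and why the 2 calls were lost in them was not tested. Without a filter on dim probe sets neither receptor passed, and 49 probe sets rose and 20 fell of 12422.

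**Figure D1:**
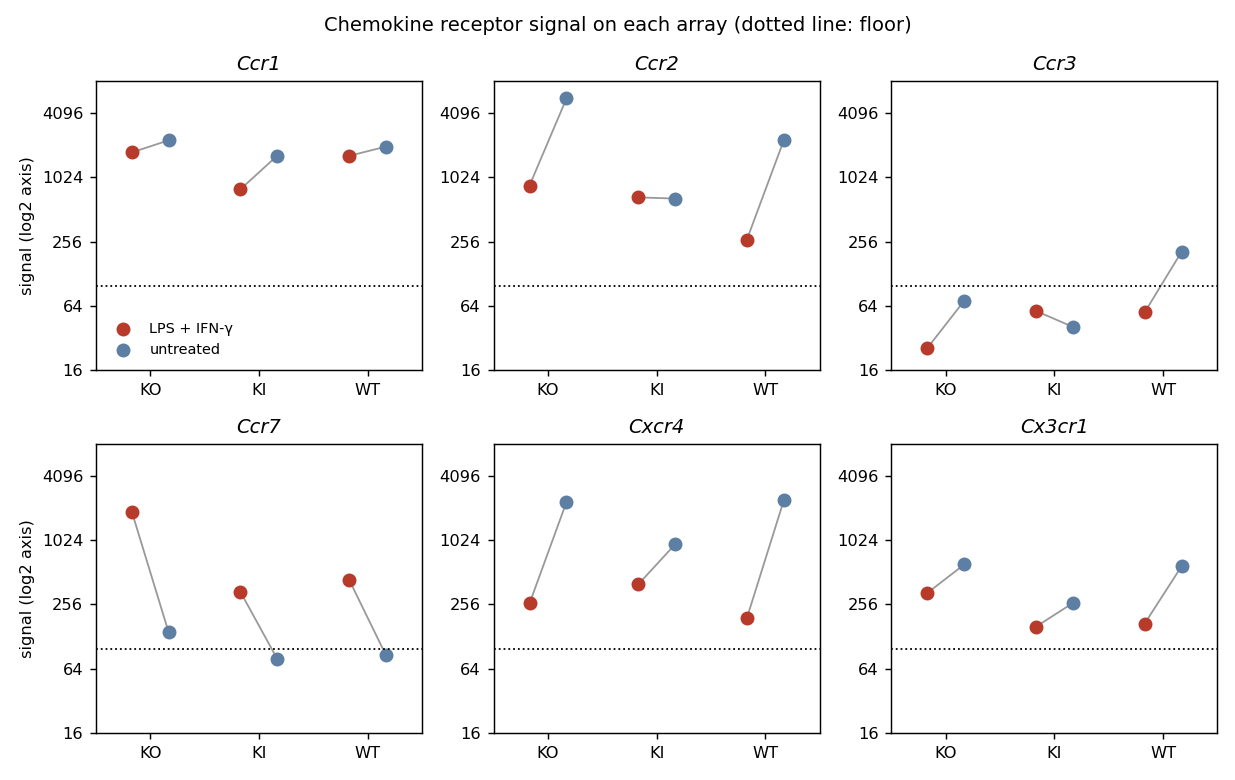
Signal of the 6 chemokine receptors on each of 6 arrays (1 point per array, log2 axis), for KO, KI and WT cells stimulated with LPS plus interferon-γ (red, left) and untreated (blue, right). Ccr7 was higher and Cxcr4 lower on the stimulated array of every genotype, Ccr2 was 665 and 649 on the stimulated and untreated KI arrays, and Ccr3 passed the dotted floor of 98.0 on the untreated WT array alone.

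Ccr7, the lymph-node homing receptor, had a signal of 1897 on the stimulated and 140 on the untreated KO array. The KI arrays gave 335 and 78.5, and the WT arrays 436 and 85.2, in the same order. Every stimulated array thus lay above every untreated array, and the stimulated KO array stood above the other 5. In order of level, gaps beyond the residual SD of 0.75 on the log2 scale lay between stimulated KO and stimulated WT (2.12) and between stimulated KI and untreated KO (1.26). The residual SD of each receptor comes from the same fit, with 2 residual degrees of freedom and no repeat arrays. It gives a scale for the gaps and does not test the order of single arrays. The mean log2 change of Ccr7 was 2.56 (SE 0.45, limma adjusted p = 0.0304), higher in 3 of 3 genotypes. The signal was 13.6-fold higher after stimulation in KO cells, at least 3.42-fold higher in KI cells and at least 4.45-fold higher in WT cells, where both untreated signals were under the floor. Left out in turn, the KO, KI and WT arrays gave changes of 1.96, 2.96 and 2.77, with limma adjusted p of 0.265, 0.152 and 0.298 in fits that called 0, 13 and 0 of 9344 probe sets. A floor at the 60th percentile also ended the call (1.38, limma adjusted p = 0.136), as did testing without a filter (limma adjusted p = 0.198).

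Between genotypes, stimulated KO cells had 4.35-fold more Ccr7 signal than stimulated WT cells, a difference of 2.12 on the log2 scale that 9 of 9344 probe sets, Ccr7 included, reached or passed. Stimulated KI cells had a signal 1.30-fold below WT and 5.66-fold below KO, and 5 of 9344 probe sets lay as far or farther below KO. With 1 array on each side, none of this could be tested. The labels give no stimulation time for the WT array, so genotype and a difference in time cannot be told apart here. This limit holds for every comparison with WT of stimulated cells or of the change with stimulation. The change with stimulation was larger in KO than in WT by 1.61 on the log2 scale, with the untreated WT signal at the floor, and by 1.41 with a floor at the 20th percentile.

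Ccr7 is also a receptor of mature dendritic cells and of B and T cells, so markers of these cells were set beside it. Of 8 dendritic cell markers measured, 6 were above the floor on at least 1 array, and Zbtb46, a factor specific to conventional dendritic cells among myeloid cells, and Ccl17 were under it on all 6. The summed signal of the 8 was 22589 and 4581 on the stimulated and untreated KO arrays, 18932 and 10758 on the KI arrays and 9828 and 4309 on the WT arrays. Itgax, the integrin gene also expressed by macrophages, gave 7301 of the sum on the untreated KI array against 3141 on the stimulated one, and neither it nor Fscn1 passed (-0.15 and 0.75, limma adjusted p = 0.842 and 0.319). Ccl22, Ly75 and Cd83, genes of dendritic maturation that macrophages can express too, rose by 4.34, 2.41 and 2.39 on the log2 scale, while Flt3, a receptor of dendritic cell precursors, fell by 1.27 (limma adjusted p from 0.00357 to 0.0383). Ccl22, a ligand of the receptor Ccr4, reached 11071 on the stimulated KO array, 6199 on the KI array and 3049 on the WT array. Of 7 measured T cell markers, Cd3d, Cd3e, Cd3g, Cd5 and Thy1 were under the floor on every array. Cd28 was above it on every untreated array and the stimulated KI array, at up to 206, and Cd247 on both WT arrays, at up to 122. Neither passed the stimulation test (-0.75 and -0.09, limma adjusted p = 0.0563 and 0.632). The summed signal of 6 B cell markers was 1825 and 3745 on the stimulated and untreated KO arrays, 1154 and 1442 on the KI arrays and 1831 and 4026 on the WT arrays, although Cd79a, Blk and Pax5, 3 of the 6, were higher on the stimulated KI array and the lower sum there came mainly from Cd22 (229 and 552). The part of dendritic cells in the Ccr7 signal was not tested. In RNA of a mixed cell preparation, more cells of a type and more RNA per cell cannot be told apart.

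Cxcr4, the receptor of Cxcl12, had a signal of 262 on the stimulated and 2331 on the untreated KO array. The KI arrays gave 394 and 937, and the WT arrays 190 and 2415. Every untreated array lay above every stimulated one, and the KI arrays had the smallest gap between states. Gaps beyond the residual SD of 0.90 on the log2 scale lay between untreated KO and untreated KI (1.31) and between untreated KI and stimulated KI (1.25). The mean log2 change was -2.69 (SE 0.49, limma adjusted p = 0.0328), lower in 3 of 3 genotypes. The stimulated signal was 8.91-fold lower in KO, 2.38-fold lower in KI and 12.7-fold lower in WT cells, and in WT only 3 of 9344 probe sets, Cxcr4 included, had a decline of that size or more. Without the KO, KI or WT arrays in turn, the change was -2.46, -3.41 and -2.20, with limma adjusted p of 0.368, 0.0813 and 0.335 in the same small fits. Without a filter on dim probe sets the limma adjusted p was 0.218. B cells carry Cxcr4 too. Of the 6 B cell markers Ms4a1, the gene of CD20, fell by 1.53 on the log2 scale (limma adjusted p = 0.0219). The other 5 did not pass, so 1 of 6 fell, against 6.01% of all probe sets. Their mean changes over the 3 genotypes were negative, from -1.61 for Cd79b (limma adjusted p = 0.110) to -0.05 for Cd79a (limma adjusted p = 0.941). The median of all probe sets tested was -0.12. Directions differed between genotypes. Cd79a, Blk and Pax5 were higher on the stimulated than on the untreated KI array (302 and 152, 246 and 159, 146 and 133). Pax5 was also higher on the stimulated KO array (240 and 205), while all 6 markers were lower on the stimulated WT array. The part of B cells in the Cxcr4 signal was not tested.

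The 250 bases before the RefSeq start of Cxcr4 are shown because its decline was among the largest on the WT arrays. Those of Cx3cr1 are shown because its signal was also lower on the stimulated array of every genotype. The same held for Ccr1, whose window is not shown. The windows shown are both from RefSeq, build GRCm38.p6, minus strand, and lie at chr1:128592300-128592549 and chr9:120068297-120068546. Capitals mark matches to the motifs listed after them.
Cxcr4: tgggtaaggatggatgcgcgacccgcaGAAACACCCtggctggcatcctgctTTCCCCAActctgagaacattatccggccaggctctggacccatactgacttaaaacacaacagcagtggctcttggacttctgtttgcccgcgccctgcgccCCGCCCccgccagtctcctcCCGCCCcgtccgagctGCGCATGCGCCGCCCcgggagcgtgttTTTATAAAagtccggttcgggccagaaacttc
Cx3cr1: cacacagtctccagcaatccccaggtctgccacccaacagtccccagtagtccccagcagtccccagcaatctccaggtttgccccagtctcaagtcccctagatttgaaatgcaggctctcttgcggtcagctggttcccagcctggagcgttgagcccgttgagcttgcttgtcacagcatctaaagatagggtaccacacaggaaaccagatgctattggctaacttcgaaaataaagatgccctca
Of the 6 receptors, 5 had a promoter in the RefSeq table. The 250-base windows were searched on both strands for TTGCNNAA, a core of the C/EBP consensus, held by 9.56% of 32851 windows, and no window of the 5 receptors matched. GAAANNGAA, from the interferon response element (7.13%), matched in Ccr2, and GGGNNNTTC, part of an NF-κB form (11.8%), in Cxcr4 and Ccr3. The looser C/EBP form TTNNGNAA, held by 36.8% of windows, matched in Cxcr4, Ccr1, Ccr3 and Ccr2. The Cxcr4 window also held CATGCGC, part of the NRF-1 motif (3.24% of windows), at 2 overlapping places from 59 to 50 bases before the start. It held GGGCGG, the Sp1 motif (32.7%), at 3 places, 1 of them sharing a base with the NRF-1 matches, and TATAAA (12.4%) at 2 overlapping places from 32 to 25 bases before the start. All motifs except TTGCNNAA were chosen or shortened after the sequences were seen. A match describes letters and is not evidence of binding.

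Ccr2, the monocyte receptor of Ccl2, had a signal of 860 on the stimulated and 5625 on the untreated KO array. The KI arrays gave 665 and 649, and the WT arrays 267 and 2285. Untreated KO and untreated WT cells stood highest, while the 2 KI arrays differed by 0.04 on the log2 scale. Gaps beyond the residual SD of 1.21 lay between untreated KO and untreated WT (1.30), untreated WT and stimulated KO (1.41), and untreated KI and stimulated WT (1.28). The mean log2 change was -1.92 with an SE of 0.63, the widest of the 6 receptors, and did not pass (limma adjusted p = 0.134), though it did with a pseudocount in place of the floor (-1.83, limma adjusted p = 0.0240). The stimulated signal was 6.54-fold lower in KO, 1.03-fold higher in KI and 8.54-fold lower in WT cells. The change with stimulation was 3.13 higher on the log2 scale in KI than in WT and 2.74 higher in KI than in KO, differences that 3 and 5 of 9344 probe sets reached.

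Set against WT within a state, Ccr2 in KO cells was 3.22-fold higher when stimulated and 2.46-fold higher when untreated, 1.69 and 1.30 on the log2 scale. KI cells were 2.49-fold higher than WT when stimulated and 3.52-fold lower when untreated. Against KO, untreated KI cells were 8.67-fold lower, and 10 of 9344 probe sets lay as far or farther down in that comparison. Of 6 monocyte markers, 3 were measured, and their summed signal was 4259 and 2261 on the stimulated and untreated KO arrays, 2199 and 318 on the KI arrays and 3962 and 2119 on the WT arrays. Plac8, which is high in monocytes, gave most of this sum, with 2025 on the stimulated and 231 on the untreated KI array. In untreated cells both the sum and Ccr2 were lowest in KI, whereas in KO and WT the sum was higher and Ccr2 lower on the stimulated array. The part of monocytes in the Ccr2 signal was not tested.

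Ccr1, a receptor of Ccl3, Ccl5 and Ccl7, had the smallest residual SD of the 6. Its signal was 1757 on the stimulated KO array and 2281 on the untreated one, 793 and 1640 on the KI arrays and 1630 and 1992 on the WT arrays. Ordered by level, neighbouring arrays differed by less than the residual SD of 0.29 on the log2 scale, except that the stimulated KI array lay 1.04 below the next. The mean log2 change of -0.57 (SE 0.19) did not pass the test (limma adjusted p = 0.138). In stimulated cells the KI signal was 2.22-fold below KO and 2.06-fold below WT, a difference from WT of -1.04 on the log2 scale that was -0.71 with each array centred on its median.

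Cx3cr1, the fractalkine receptor, had a signal of 328 on the stimulated and 605 on the untreated KO array, 158 and 264 on the KI arrays, and 169 and 583 on the WT arrays. In each genotype the stimulated array was lower, but untreated KI cells had less than stimulated KO cells, so the states overlapped across genotypes. Only the gaps between untreated WT and stimulated KO (0.83) and between untreated KI and stimulated WT (0.64) passed the residual SD of 0.40 on the log2 scale. The mean log2 change of -1.14 (SE 0.30) did not pass (limma adjusted p = 0.0827), and passed with a pseudocount (-0.97, limma adjusted p = 0.0218). Stimulated KO cells had 1.94-fold more signal than stimulated WT cells, and KI cells had 2.07-fold less than KO. Untreated KI cells were 2.30-fold below KO and 2.21-fold below WT.

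Ccr3, the eotaxin receptor, was above the floor on 1 array only, untreated WT, with a signal of 206. The stimulated and untreated KO arrays gave 25.8 and 71.6, the KI arrays 57.5 and 40.7, and the stimulated WT array 55.7. Its signal was at least 2.10-fold lower in stimulated than in untreated WT cells, and untreated KO and KI cells were lower than untreated WT cells by at least the same fold. The mean log2 change with the floor was -0.36 (SE 0.25, limma adjusted p = 0.426). Of 4 measured eosinophil markers, Epx, Prg2 and Il5ra were under the floor on all 6 arrays and Prg3 was above it on the stimulated WT array alone, at 103. Untreated WT was also the array with the most probe sets above the floor, 65.8% against 55.7% to 61.2% on the others.

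**Figure D2:**
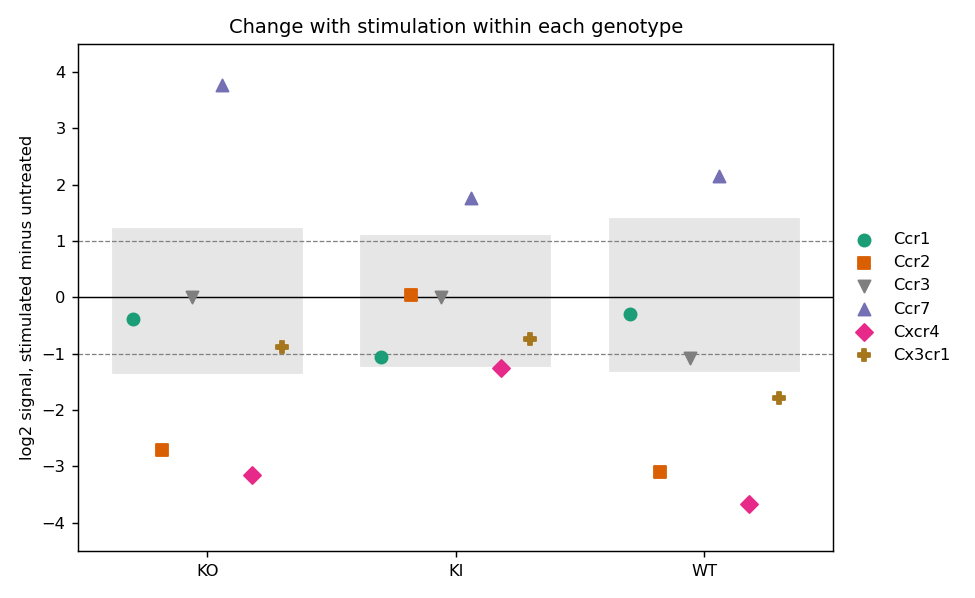
Change in log2 signal with stimulation for each receptor within KO, KI and WT cells (1 pair of arrays each, values with the floor). Grey boxes span the 5th to the 95th percentile of all 9344 probe sets and dashed lines mark 1 on the log2 scale. Ccr7 lay above the box in all 3 genotypes, Cxcr4 below it in all 3, and Ccr2 below it in KO and WT but at 0.04 in KI.

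Counted by size, stimulated KO cells had 1 of 6 receptors higher than untreated ones by 1 log2 unit or more and 2 lower, against 6.54% and 9.69% of 9344 probe sets. In KI cells the counts were 1 and 2 (5.58% and 8.01%), and in WT cells 1 and 4 (8.54% and 10.1%). Ccr7 was the higher receptor in each genotype and Cxcr4 was among the lower ones in each. Ccr2 joined it in KO, Ccr1 in KI, and Ccr2, Cx3cr1 and Ccr3 in WT. Some of these sizes were under 1 with other processing. With the floor at the 60th percentile Ccr7 changed by 0.42 in KI and 0.80 in WT cells. Ccr1 in KI cells changed by -0.97 with quantile normalization and -0.88 with median centring, and Ccr3 in WT cells by -0.85 with either. With 1 pair of arrays per genotype, these counts have no test. With the floor, the change itself was higher in KO than in WT by at least 1 for 2 receptors, Ccr7 and Ccr3, against 5.36% of probe sets, and lower for 0, against 7.18%. Both rest on floored signals: Ccr3 was under the floor on both KO arrays, and its 1.07 became 0.70 with a floor at the 20th percentile and 0.59 with a pseudocount, while Ccr7 became 1.41 and 1.51. It was higher in KI than in WT for 4, Ccr2, Cxcr4, Ccr3 and Cx3cr1 (6.77%), and lower for 0 (8.87%), with Ccr3 under the floor on both KI arrays too. Against KO it was higher in KI for Ccr2 and Cxcr4 (5.07%) and lower for Ccr7 (4.09%).

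Within each state the genotypes were compared as single arrays, and the stimulated WT array has no stated stimulation time. In stimulated cells, Ccr7 and Ccr2, 2 of 6 receptors, stood at least 1 log2 unit above WT in KO, against 2.57% of probe sets, and 0 stood that far below, against 3.24%. In untreated cells Ccr2 was higher and Ccr3 lower in KO, against 6.30% and 4.30%. Stimulated KI cells had 2 receptors higher than WT, Ccr2 and Cxcr4 (1.89%), and 1 lower, Ccr1 (4.92%). That Cxcr4 difference was 1.05, and became 0.65 with the floor at the 60th percentile, 0.88 with a pseudocount and 1.37 with median centring. The Ccr1 difference of -1.04 became -0.71 with median centring. Untreated KI cells had 0 higher than WT (8.12%) and 4 lower, Ccr2, Cxcr4, Cx3cr1 and Ccr3 (10.0%). Against KO, stimulated KI cells had 0 higher (1.49%) and 3 lower, Ccr7, Ccr1 and Cx3cr1 (2.76%), and untreated KI cells had 0 higher (2.84%) and 3 lower, Ccr2, Cxcr4 and Cx3cr1 (5.36%). Under median centring Ccr1 and Cx3cr1 in stimulated KI cells differed from KO by -0.94 and -0.84, which leaves Ccr7. With each array centred on its median, 11 of 36 such differences reached 1, against 17 here, and the median KI minus WT difference of all probe sets over both states moved to 0.11, against -0.11 here. Ccr2 and Cxcr4 in untreated KI cells then differed from WT by -1.48 and -1.03, and Cx3cr1 and Ccr3 by -0.81 and -0.85.

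Fitted over both states with limma, 0 of 6 receptors differed between KO and WT, between KI and WT or between KI and KO, with adjusted p from 0.268 upwards. Over all 9344 probe sets this fit called 0, 1 (0.0107%) and 0. Unadjusted p under 0.05 was met by 0, 1 and 3 receptors, and by 946, 1598 and 703 probe sets. The fit averages the states, and Ccr2 and Cxcr4 in KI cells differed from WT in opposite directions in stimulated and untreated cells.

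**Figure D3:**
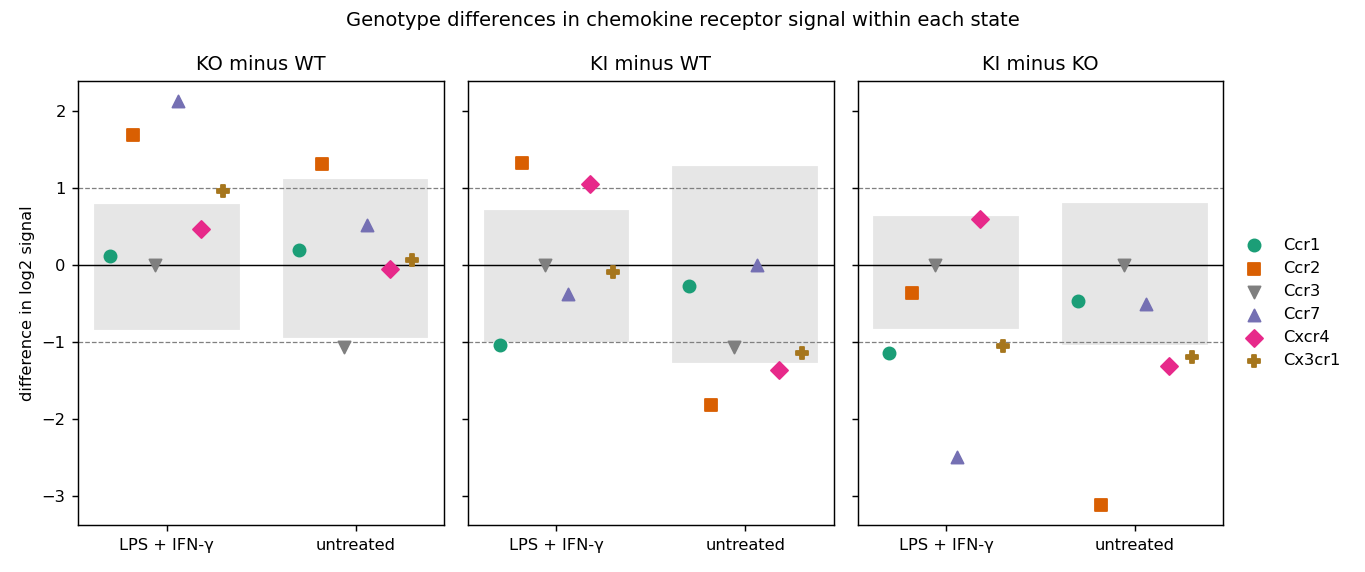
Differences in log2 signal between genotypes within stimulated and untreated cells for each receptor (1 array per group, values with the floor). Grey boxes span the 5th to the 95th percentile of 9344 probe sets and dashed lines mark 1 on the log2 scale. Ccr7 stood 2.12 above WT in stimulated KO cells, and Ccr2 stood 3.12 below KO in untreated KI cells.

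Most of the tested genes listed as ligands of these receptors rose with stimulation, and those that rose were all CC chemokines. No ligand of Ccr7 was among those measured. Of 14 listed, 11 were measured and 10 were above the floor on at least 1 array, of which 6 rose and 1 fell, against 5.03% and 6.01% of all probe sets, with a median log2 change of 1.70. Ccl2 and Ccl12, ligands of Ccr2, rose by 3.42 and 3.60 (limma adjusted p = 0.00314 and 0.0103), and Ccl7, which binds Ccr2 among others, by 4.43 (limma adjusted p = 0.00178). Ccl8, whose receptor use in the mouse was not checked here, rose by 2.34 (limma adjusted p = 0.0466). Ccl12 was at 2044 on the stimulated KO array and 30.3 on the untreated one, 1409 and 18.3 on the KI arrays, and 579 and 38.5 on the WT arrays. Ccl8 reached 6152 in stimulated KO cells, 2547 in KI and 2224 in WT. Ccl3 and Ccl5, ligands of Ccr1, rose by 1.05 and 7.57 (limma adjusted p = 0.0236 and 0.000325). Ccl6, another ligand of Ccr1, fell by 1.79 (limma adjusted p = 0.0147), and Ccl9 did not pass (-0.38, limma adjusted p = 0.136). Cxcl12 and Cx3cl1, the ligands of Cxcr4 and Cx3cr1, had signals of at most 221 and 154 on any array and changes of -0.28 and -0.10 that did not pass. Ccl11, the eotaxin that binds Ccr3, was under the floor on every array.

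**Figure D4:**
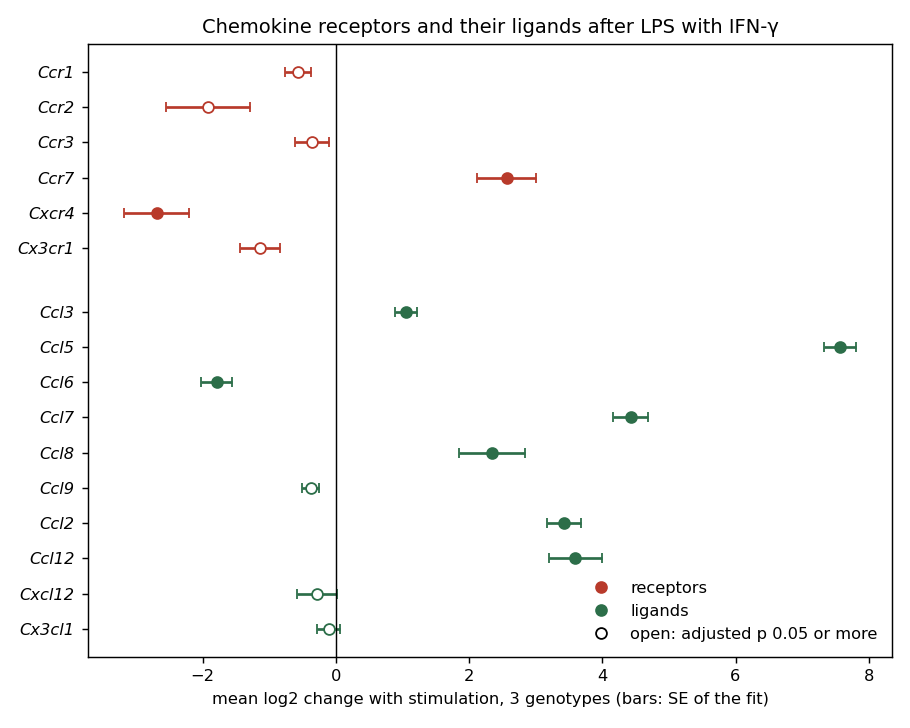
Mean log2 change with stimulation over 3 genotypes for the 6 receptors (red) and 10 genes listed as their ligands (green). Bars are the SE of the limma fit, and points are open where the adjusted p was 0.05 or more. Ccr2, at -1.92, did not pass, while its ligands Ccl2, Ccl7 and Ccl12 rose.

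Of 18 other chemokine receptors listed, 14 were measured and 8 were above the floor on at least 1 array. Ccrl2, an atypical receptor that binds chemerin, passed the test, with signals of 1241 and 392 on the stimulated and untreated KO arrays, 1273 and 465 on the KI arrays and 1506 and 726 on the WT arrays (mean log2 change 1.39, SE 0.18, limma adjusted p = 0.0147). Xcr1, known from cross-presenting dendritic cells, did not pass (0.85, limma adjusted p = 0.230) but, like Ccr7, had its highest signal on the stimulated KO array, 775, against 312 on the stimulated KI and 250 on the stimulated WT array. Cxcr3, a receptor of interferon-induced CXC chemokines, did not pass either (-0.69, limma adjusted p = 0.179). Among protein-coding genes of mouse chromosome 9, Xcr1, Ccr1, Ccr1l1, Ccr3 and Ccr2 follow each other in this order. Ccr1, Ccr3 and Ccr2 differed in pattern over the arrays as described.

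The genes whose log2 signal followed each receptor most closely over the 6 arrays were taken from 3425 genes that varied by at least 1. For Ccr7 they were Mxd1, Birc2 and Syngr2 (Pearson's r from 0.973 to 0.985), for Cxcr4 Cdk5, Capzb and Map1lc3b (0.994 to 0.995), for Ccr2 Tle4, Tgif2 and Herc4 (0.987 to 0.993), for Cx3cr1 Tmem159, S100a4 and Eif3e (0.989 to 0.991), and for Ccr1 Psph, Fam3a and Zmat3 (0.970 to 0.985). S100a4 had 3424 and 9351 on the stimulated and untreated KO arrays, 1344 and 3145 on the KI arrays and 1905 and 9247 on the WT arrays, the same order of states as Cx3cr1. Ccr3 was above the floor once, so 13 genes tied with it and none is named. Among the receptors, r was 0.90 for Ccr2 and Cx3cr1, 0.86 for Ccr2 and Cxcr4, 0.83 for Cxcr4 and Cx3cr1 and -0.79 for Ccr7 and Cxcr4. With 6 arrays that share the contrast of states, these values describe the arrays only.

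Markers of the remaining cell types, with lists of 3 to 11 measured genes, complete the account of the preparation. The summed signal of 11 neutrophil markers ran from 1214 to 3201 over the arrays, with Mmp9 alone giving 1922 of the highest, on the untreated KI array. S100a9 and Ngp were under the floor throughout, while S100a8 (195 to 1073) and Camp (118 to 372) were above it on every array. Mast cell markers (7 measured) summed to between 1242 and 2439. Kit and Fcer1a were under the floor throughout, while Cma1 (528 to 1233) and Tpsb2 (291 to 902) were above it on every array. NK cell markers (4 measured) summed to between 131 and 236, with all 4 under the floor. Mesothelial and fibroblast markers (7) summed to between 2454 and 5584, and red cell markers (3) to between 189 and 1953. The part of any of these cells in the receptors' signals was not tested.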

How the data were processed

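Total RNA was extracted with Trizol and labelled with biotin for Affymetrix arrays, per the labels' protocols. The authors deposited 1 table of linear signal intensity per probe set from MAS5, a tool named in the submitters' processing notes without version or scaling target. Trimmed array means (2% off each end) lay within 500.3 to 500.4. Intensities were rescaled to a common trimmed mean, floored at the 40th percentile (98.0) and converted to log2. The 66 control probe sets were left out and the 9344 probe sets that exceeded the floor on any array were tested. Symbols came from the platform annotation, where 10833 probe sets had 1 symbol, 396 several and 1193 none. Genes with several probe sets are given by the brightest (mean log2 signal).

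limma 3.58.1 in R 4.3.3 fitted genotype and state additively over 6 arrays (2 residual degrees of freedom, intensity trend, Benjamini-Hochberg at 0.05 over all probe sets). Differences within a genotype or state have no test and are counted at 1 or more on the log2 scale. The code was tested on simulated data. The members, the gene lists (ligands, other chemokine receptors, signalling genes, and markers of macrophages, monocytes, neutrophils, eosinophils, mast cells, dendritic cells, T cells, B cells, NK cells, mesothelium or fibroblasts, and red cells) and the tests were chosen with earlier results of these data known. Named genes are the receptors, Cebpb, all measured ligands, up to 4 genes of the other lists, list markers, and the 3 genes most like each receptor. Alternatives were other floors, a pseudocount of 50, quantile normalization, median centring, no filter, averaged probe sets, no trend, and leaving out each genotype. Some items of the lists and motifs are not reported here.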

Additional observations from a re-analysis of the deposited data

Results flagged for a closer look

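Ccr2 was lower with stimulation in KO and WT cells and nearly level in KI cells. Its log2 signal with stimulation changed by -2.71 in KO, 0.04 in KI and -3.09 in WT cells, so that the change was 3.13 higher in KI than in WT and 2.74 higher in KI than in KO. Each genotype had 1 pair of arrays, and the difference between genotypes was not tested. The residual SD of 1.21 is itself computed from how the change differed between genotypes. It is therefore no separate measure of noise for the KI change. No group had enough arrays to look for a stray sample.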

How the results depend on the processing

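The stimulation fit pairs the 2 arrays of each genotype, and with no replicate numbers in the labels no other pairing was tried. Of 6 receptors, 2 passed the stimulation test, and 2 also did with a floor at the 20th percentile, quantile normalization, median centring, averaged probe sets or no intensity trend. The count was 1 with a floor at the 60th percentile, 4 with a pseudocount of 50 (Ccr2 and Cx3cr1 joining), 0 without a filter on dim probe sets, and 0 without both KO, both KI or both WT arrays, where 0, 13 and 0 of 9344 probe sets passed, so that no call on any ligand, marker or signalling gene was left without the KO or WT arrays either. Those fits hold fewer arrays. Otherwise the cause was not tested. Over these alternatives the change of Ccr7 ran from 1.38 to 2.96 and that of Cxcr4 from -3.41 to -2.20. With median centring, 11 of 36 differences within a state reached 1 on the log2 scale, against 17, and the KI minus WT values over both states, which did not pass, turned to 0.080 for Ccr2 and 0.17 for Cxcr4, against -0.25 and -0.16. The numbers for genotype over both states, for change within a genotype and for difference in the change stayed within 1.5 times. Ccr3 could not be tested with the floor at the 60th percentile, which lies above all its signals. Signals near the floor limit Ccr3 throughout and Ccr7 in untreated cells.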

Other observations

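Genes of the signalling path behind chemokine receptors were put to the same stimulation test. Of 25 listed, 17 were measured and 16 were above the floor on at least 1 array, of which 2 rose and 2 fell, against 5.03% and 6.01% of all probe sets, with a median log2 change of -0.18. Vav1, an exchange factor for Rac proteins, had signals of 2176 and 1084 on the stimulated and untreated KO arrays, 2518 and 1018 on the KI arrays and 1944 and 682 on the WT arrays, a rise of 1.27 (limma adjusted p = 0.0119). Rac2, the Rac protein of blood cells, rose by 0.95 (limma adjusted p = 0.0203). Rgs2, which shortens G protein signals, had 280 and 1777 on the KO arrays, 413 and 1817 on the KI arrays and 106 and 1319 on the WT arrays in the same order, and fell by 2.81 (limma adjusted p = 0.0107). Grk5, a kinase that desensitises receptors, fell by 1.69 (limma adjusted p = 0.0270).

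Dock2, the exchange factor that links chemokine receptors to Rac in leukocytes, was lower on both WT arrays than on the other 4, and was chosen after its values were seen. Its signal was 1260 and 1568 on the stimulated and untreated KO arrays, 1290 and 2001 on the KI arrays and 541 and 450 on the WT arrays. Its change with stimulation did not pass (-0.23, limma adjusted p = 0.536), and KO minus WT, at 1.22 in stimulated and 1.80 in untreated cells, had 1 array a side and no test. Arrb1, an arrestin also chosen after its values were seen, had 334 and 789 on the stimulated and untreated KO arrays, 438 and 967 on the KI arrays and 285 and 242 on the WT arrays.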
